A study of Drosophila melanogaster with 6 samples.

Results

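The genes described here are 7 Drosophila genes of regulated vesicle release and of neurons: Sytalpha, Syt4, Rab3, unc-13-4A, brp, nrv3 and elav. Each was found by its symbol in the gene field of the authors' deposited table, and together they make up 7 of its 8164 gene rows. All 7 have a row of their own, with no other gene in it. The set was selected from the fold changes and p-values of the same comparison that is reported below, so the values of the members are given as a description and no count over them is support for a difference.

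The RNA came from old and young midguts of 1 fly line, yw flies carrying esg-GAL4 (NP5130) with UAS-GFP and UAS-GFPnlacZ, and age alone separates the groups in the labels. Cells were dissociated and sorted, to enrich for intestinal stem cells, from 3 batches of old flies (59 to 65 days) and 3 batches of young flies (6 to 8 days). The escargot driver is active in the stem cells and in their immediate daughters, so the sorted population is not a single cell type. The values used are those of the authors' comparison of the ages. Each row has a log2 fold change, its p-value with and without adjustment for the number of rows, and the mean over all libraries in log2 CPM, a read count scaled to the size of the library. The sources used here do not give the age on top of that fold change. A positive value therefore says that the ages differed in the same sense as for other positive genes, and not which age was higher. Columns of single libraries carry names that match no sample label and were not used, so no value per age, spread between batches or library depth is given.

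Cells that secrete on demand, neurons and the enteroendocrine cells of the gut among them, store cargo in vesicles and fuse these with the plasma membrane when calcium enters. SNARE proteins drive the fusion, synaptotagmins sense calcium, Unc-13 proteins prepare vesicles for fusion, Rab3 marks vesicles that are ready for release, and scaffolds such as Bruchpilot hold the release site together. In the midgut, enteroendocrine cells arise from the stem cells and release peptide hormones from dense-core vesicles.

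Of the 7 members, 6 had a positive log2 fold change with an adjusted p under 0.05 per the authors' deposited table, where the same was true of 5.17% of all rows and a call of either sign of 7.1%. None was called negative, and elav was the member that did not pass. The 6 called members spanned log2 fold changes of 1.47 to 4.04, a size of 2.77-fold to 16.4-fold, against a median of 0.05 over the single-gene rows of the authors' deposited table. Because the members were chosen by these values, that share says nothing further about them.

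**Figure D1:**
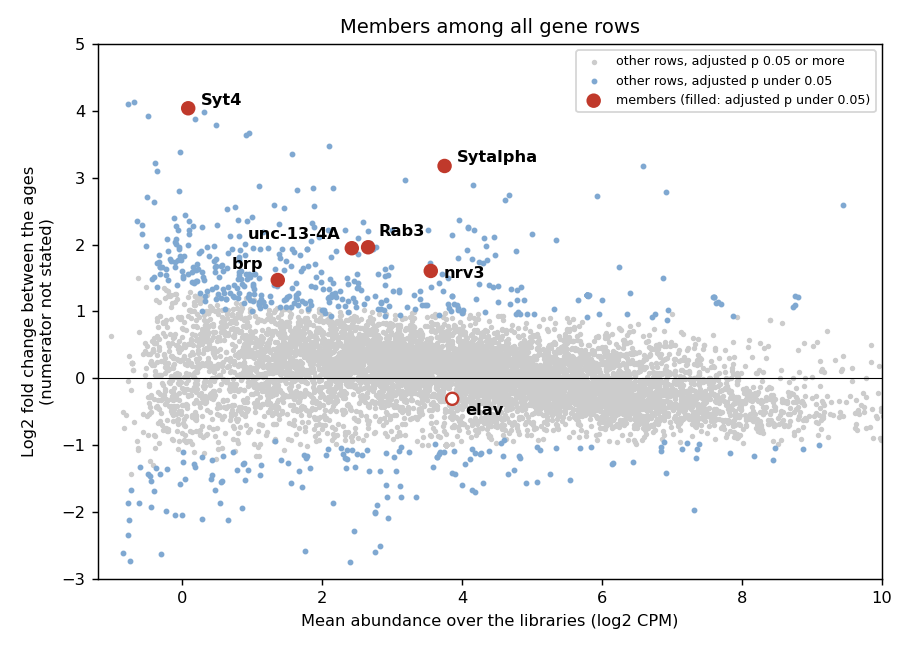
Log2 fold change between the ages (vertical axis) against mean abundance over the libraries in log2 CPM (horizontal axis) for the gene rows of the authors' deposited table, with members in red, filled where the adjusted p is under 0.05. The 6 filled members lie above the bulk of rows, between 1.47 and 4.04, and elav lies within it at -0.31. The drawn range leaves out 167 rows, none of them a member.

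The synaptotagmin genes held the members with the largest differences. Sytalpha encodes a member of this family of vesicle membrane proteins (FBgn0261089, dm3 2L from 17592864 to 17603288, plus strand). In the authors' deposited table its log2 fold change was 3.18 (adjusted p 3.49e-16, mean 13.5 CPM). This placed Sytalpha at rank 13 of 8164 rows by p and at rank 21 by fold change, near the middle of the table by abundance, at percentile 46.9. Syt4 encodes a synaptotagmin that in fly muscle acts in calcium-triggered release of signals back to the motor neuron (FBgn0028400, dm3 3R from 3091783 to 3096533, plus strand). Its log2 fold change of 4.04 per the authors' deposited table was the largest of the members and rank 10 of all rows. The adjusted p of Syt4 was 2.56e-11 in the authors' deposited table. That value rests on a mean of only 1.06 CPM, at percentile 4.43 of abundance, among the least abundant rows.

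Both other synaptotagmin genes with a row of their own had the same sign. Syt1, the main calcium sensor of fast transmitter release at fly synapses, differed by a log2 fold change of 1.32 per the authors' deposited table (adjusted p 0.00149, mean 5.88 CPM). Syt7 had 1.40 per the authors' deposited table (adjusted p 0.00488, mean 1.68 CPM). Sytbeta shares a row with 7 other genes and Esyt2, listed as CG6643, shares one with a tRNA and an snRNA gene. These shared rows had log2 fold changes of 2.12 and 1.73 per the authors' deposited table, which cannot be given to a single gene. Syt12 and Syt14 had no row under those names. All 4 synaptotagmin genes with a row of their own were thus called positive, 2 of them members chosen for it. Over all single-gene rows, 5.24% were called positive and 1.9% negative.

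Rab3 is a small GTPase of secretory vesicles that, at fly motor terminals, controls how Bruchpilot is spread over release sites (FBgn0005586, dm3 2R from 6608833 to 6616695, minus strand). Its log2 fold change in the authors' deposited table was 1.96 at 6.32 CPM (adjusted p 3.00e-06). The other Rab GTPases, which direct traffic between many compartments, were listed by symbol after their values had been seen. None of the 21 with a row of their own was called in the authors' deposited table, 2 of them with p under 0.05 before adjustment. Over all rows, 7.1% were called in either sign. Of 7571 single-gene rows, 1442 had p under 0.05 before adjustment. The log2 fold changes of the 21 relatives ran from -0.77 to 0.32 with a median of -0.35. The highest of them was Rab21. Rab11 and Rab5, which act on endosomes, had -0.18 and -0.56 per the authors' deposited table (adjusted p 0.852 and 0.373).

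Abundance differed between Rab3 and most of its relatives, and fold change moved with abundance over the whole table. With rows divided by abundance into 4 classes of equal number, 11 of the 21 relatives lay in the most abundant class (48.6 CPM or more), where 74.9% of all rows had a negative sign and the median log2 fold change was -0.28. All 11 had a negative sign. So had the 7 relatives in the class below, where 48.6% of all rows had a negative sign and the median was 0.01. RabX4, the relative in the least abundant class, also had a negative value, -0.55 at 2.43 CPM per the authors' deposited table, although the median of that class was 0.29. In the class that holds Rab3 (4.68 to 15.3 CPM), the median was 0.20, and both relatives there, Rab21 and RabX6, had small positive values of 0.32 and 0.24 per the authors' deposited table. The part of abundance in the distance between Rab3 and its family was not tested.

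Of the genes whose products act on Rab3 or bind it, the one for its exchange factor was called. rab3-GEF, whose product loads Rab3 with GTP, had 1.91 as its log2 fold change per the authors' deposited table (adjusted p 4.97e-05, mean 1.77 CPM). In the authors' deposited table, rab3-GAP, a regulator of the GTPase, had a log2 fold change of -0.01, and CG31935, currently named Rab3GAP1, had -0.02, and neither passed. Rph, the fly rabphilin gene whose product binds Rab3, had 0.19 per the authors' deposited table (adjusted p 0.837). Rab27 and Rab26 had no row under those names. CG31935 was not on the list of Rab3 genes and is left out of its count and median. Without it, the list had 2 positive calls among 4 measured genes, none negative, with a median of 1.05. Over all single-gene rows, 5.24% were called positive and 1.9% negative, with a median of 0.05. Rab3 itself, a member chosen for it, is 1 of the 2 calls.

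Vesicle priming and release sites were represented by unc-13-4A and brp. unc-13-4A belongs to the family of Unc-13 priming factors and is related to mammalian Munc13-4 (FBgn0035756, dm3 3L from 7261249 to 7278137, minus strand). It differed by a log2 fold change of 1.95 per the authors' deposited table (adjusted p 1.34e-05, mean 5.38 CPM). The gene of the family's founding member in flies, unc-13, had -0.11 per the authors' deposited table (adjusted p 0.981, mean 92.4 CPM). Whether the paralogs differ from each other was not tested, because the table gives no standard errors.

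brp encodes Bruchpilot, the scaffold of the active zone, where synaptic vesicles dock (FBgn0259246, dm3 2R from 5391293 to 5424980, plus strand). Its log2 fold change of 1.47 per the authors' deposited table was the smallest among the called members, with an adjusted p of 0.00412 at a mean of 2.58 CPM. Of the other genes of the release site, RhoGAP100F, the Syd-1 gene that helps to assemble active zones, was called at 1.50 per the authors' deposited table (adjusted p 0.000352). Not called were Rim, the calcium channel gene cac, the scaffold gene Liprin-alpha and Caps, which acts in dense-core vesicle release. They had 0.34, -0.30, -0.26 and -0.02 per the authors' deposited table. The list of active zone and priming genes thus had 3 positive calls among 8 measured genes, none negative, and a median of 0.16. Of the 3 calls, 2 are members chosen for it, and the shares over all single-gene rows were again 5.24% positive and 1.9% negative.

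**Figure D2:**
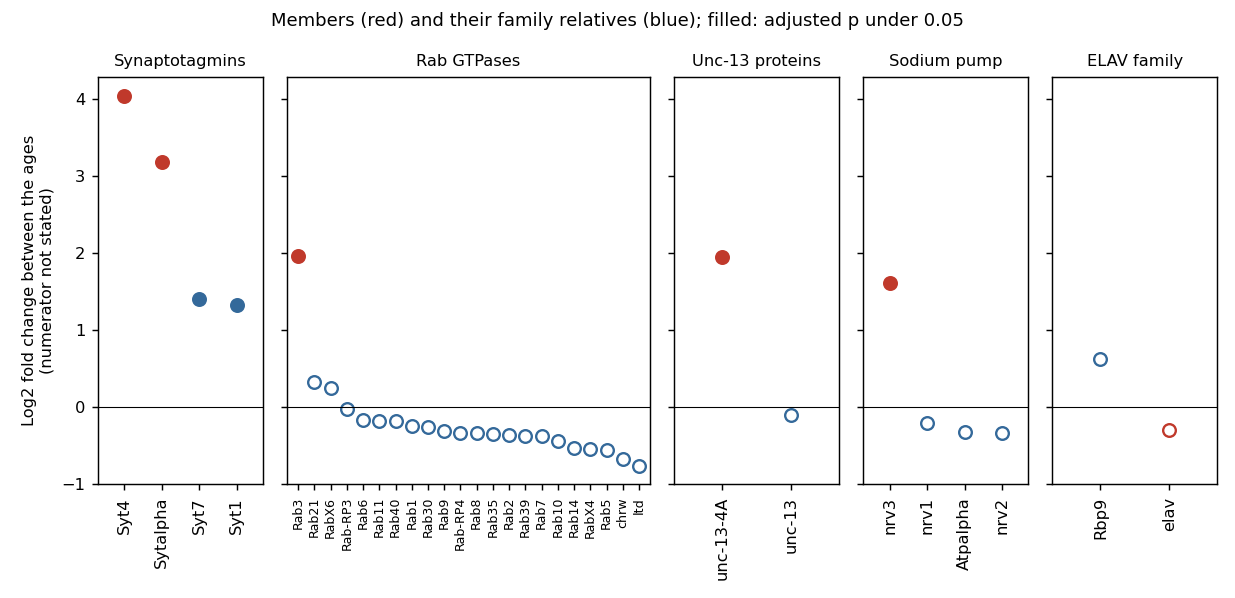
Log2 fold change between the ages in the authors' deposited table (vertical axis) for each member, in red, and for its relatives with a row of their own, in blue, by gene family and filled where the adjusted p is under 0.05. All 4 synaptotagmins are filled, whereas Rab3, unc-13-4A and nrv3 are the filled points of their panels and elav is open.

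Genes of neurons in general gave both outcomes. nrv3 encodes a beta subunit of the sodium pump that is found mainly in the nervous system (FBgn0032946, dm3 2L from 21380000 to 21390347, plus strand). In the authors' deposited table nrv3 had a log2 fold change of 1.61 at 11.8 CPM (adjusted p 0.00012). The other pump genes were more abundant and none was called, beside 7.1% of all rows called in either sign. In the authors' deposited table the catalytic subunit gene Atpalpha had -0.33 at 564 CPM, and the beta subunit genes nrv1 and nrv2 had -0.21 at 60.4 CPM and -0.34 at 75.6 CPM. Their adjusted p-values lay between 0.627 and 0.828 per the authors' deposited table.

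elav encodes an RNA-binding protein that is the standard marker of fly neurons (FBgn0260400, dm3 X from 410878 to 417259, minus strand). It differed by a log2 fold change of -0.31 per the authors' deposited table (adjusted p 0.804, mean 14.5 CPM). The RNA of elav was thus measured at the highest mean CPM of the 7 members, with the only negative sign among them. Its span lies within that of arg on the opposite strand, and the library kit does not mark strand. The exons of the 2 genes share 0 bases in the BDGP6 annotation, and arg had -0.37 per the authors' deposited table. Rbp9, another gene of the ELAV family, had 0.61 per the authors' deposited table (adjusted p 0.427), and fne had no row under that name.

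Compared per length of exon, the members were of low to middling level. The annotated exons in their rows cover between 2037 bases for Sytalpha and 9715 bases for brp. The mean level was 6.61 CPM per kb for Sytalpha and 4.69 for elav. It was 2.53 CPM per kb for nrv3, 1.68 for Rab3, 0.914 for unc-13-4A, 0.343 for Syt4 and 0.266 for brp. The median over 7175 single-gene rows with an exon length was 7.57 CPM per kb, so all 7 members lay below it, from percentile 1.14 for brp to percentile 46.3 for Sytalpha. Positive calls were frequent among rows of low abundance. They made up 12.2% of the least abundant of the 4 classes, which holds Syt4 and brp, and 3.72% of the next class, which holds the other 5 members. In the 2 more abundant classes they were 2.16% and 2.55%.

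**Figure D3:**
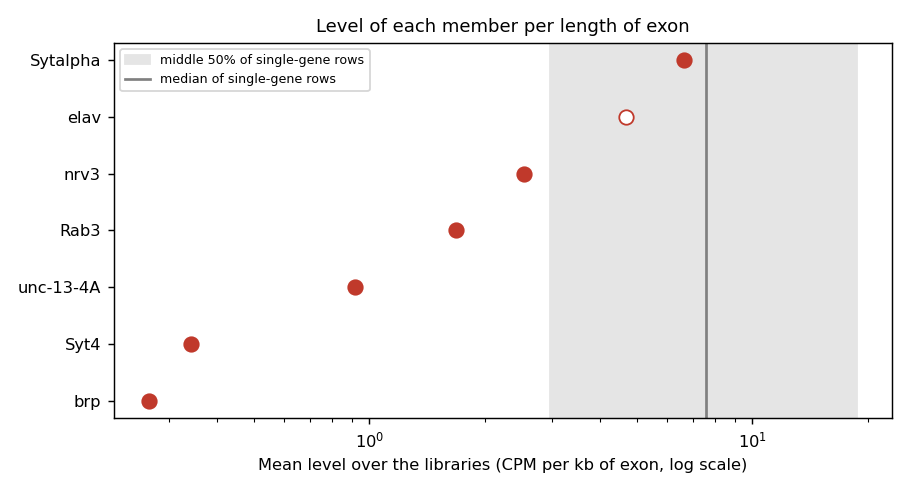
Mean level over the libraries of each member in CPM per kb of annotated exon (horizontal log axis), filled where the adjusted p is under 0.05, with the grey line and band giving the median and the interquartile range of single-gene rows. Sytalpha and elav lie inside the band and the other members below it, down to 0.266 for brp.

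The table holds fewer transcript models for some members than the current annotation. The row of Sytalpha is built on 1 transcript, where BDGP6 lists 4 for the gene, and the row of brp on 5, where 14 are listed. Rab3 and unc-13-4A have 1 transcript in the table and 2 in BDGP6. The row of elav has 3 and BDGP6 lists 4. Syt4 has 1 in both, and nrv3 has 4 in both, though 1 of the 4 in its row is no longer listed. Isoforms of a gene cannot be told apart in these rows.

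Of 11 SNARE and fusion genes with a row of their own, 3 were positive and none negative in the authors' deposited table, with a median of 0.18, beside 5.24% positive and 1.9% negative over all single-gene rows. n-syb, the neuronal synaptobrevin gene, differed by a log2 fold change of 1.93 per the authors' deposited table (adjusted p 1.66e-05, mean 3.46 CPM). Its broadly used relative Syb had -0.36 per the authors' deposited table (adjusted p 0.605, mean 263 CPM). cpx, which encodes complexin, a clamp on SNARE complexes, passed narrowly at 1.003 per the authors' deposited table (adjusted p 0.0425). Snap25 had 2.47 at 14140 CPM in the authors' deposited table, but 11 other rows lie within 0.05 of it in both log2 fold change and log2 CPM, so its value is uncertain. Snap25 is nevertheless among the 3 positive calls counted for this list. The SM protein gene Rop, the NSF genes comt and Nsf2, Snap, Snap24, usnp and tomosyn were not called in the authors' deposited table. The row that the SNARE gene Syx1A shares with 4EHP had -0.18 per the authors' deposited table (adjusted p 0.865), which cannot be given to a single gene.

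Genes of peptide maturation in dense-core vesicles included 3 positive calls among 7 measured genes, none negative, with a median of 0.68 per the authors' deposited table, whose single-gene rows were positive in 5.24% and negative in 1.9%. They were amon, which encodes a prohormone convertase, its helper gene 7B2 and the amidation gene Pal, at 1.91, 1.74 and 2.07. Phm and svr, of the same pathway, had 0.68 and 0.50 per the authors' deposited table and were not called. Pal1, listed as CG12130 and related to Pal, had 0.37 per the authors' deposited table (adjusted p 0.631) and was not called. Caps, the release gene given above at -0.02, is also counted in this list. Proteins of the synaptic vesicle cycle had no call among 5 genes in the authors' deposited table, 0 of them with p under 0.05 before adjustment. Syn, the synapsin gene, had 0.55 per the authors' deposited table, and shi, the dynamin gene, had -0.45. VGlut, VGAT and Vmat, which encode transmitter transporters, had no row under those names. Rows shared by several genes were not counted in either list. That of VAChT and Cha had 0.59 per the authors' deposited table (adjusted p 0.482). That of ia2 and CG4375, from the dense-core vesicle list, was called at 1.66 per the authors' deposited table (adjusted p 3.95e-07).

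**Figure D4:**
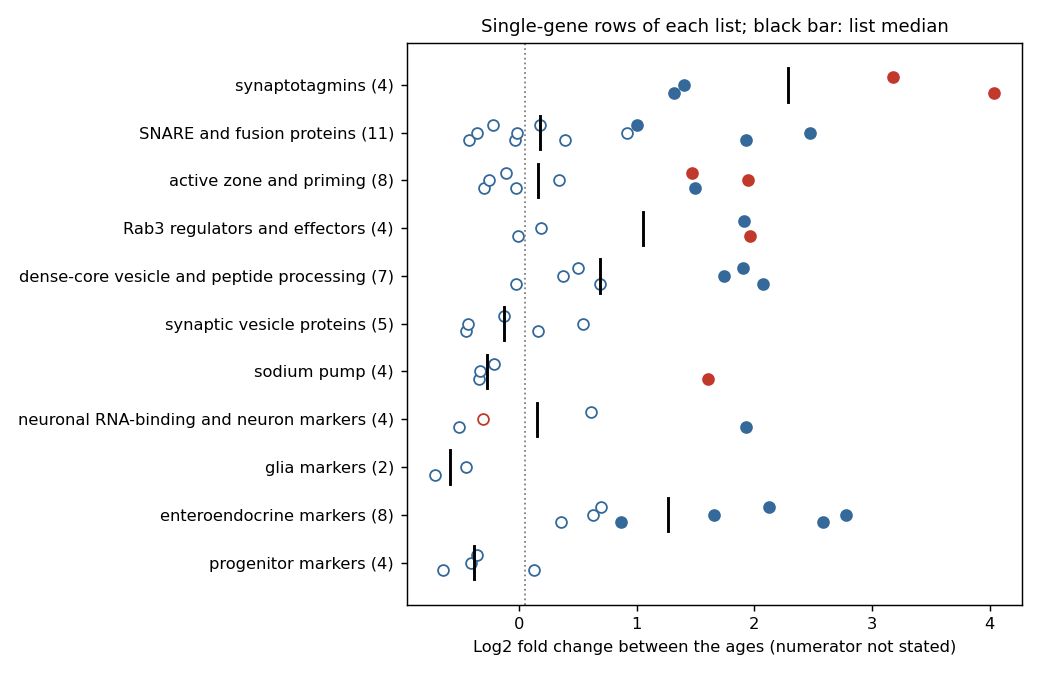
Log2 fold change between the ages in the authors' deposited table (horizontal axis) for the single-gene rows of each list, members in red and other genes in blue, filled where the adjusted p is under 0.05, with the number of rows in brackets. The black bar is the list median and the dotted line the median of all single-gene rows, 0.05. Synaptotagmins and enteroendocrine markers lie to the right, with medians of 2.29 and 1.26. Progenitor and glia markers lie to the left by their medians, -0.38 and -0.58, though the progenitor marker Dl is at 0.13. Apart from Dl, they belong to the most abundant class of rows, where the median of all rows was -0.28.

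Markers of other cell types were read beside these genes, since in bulk RNA a change in the number of cells of a type and a change in RNA per cell cannot be told apart. Of 8 enteroendocrine markers with a row of their own, 5 were called positive and none negative in the authors' deposited table, against 5.24% and 1.9% of all single-gene rows. All 8 had a positive sign, from 0.36 to 2.78, with a median of 1.26 and a summed mean level of 325 CPM. The hormone gene Dh31 shares a row with Bace and was not counted. That row had a negative sign, at -0.29 per the authors' deposited table (adjusted p 0.953), which cannot be given to a single gene. Calls fell on Ast-C, Ast and npf, which encode peptide hormones, and on tap and ase, which encode proneural factors, whereas pros, Tk and sc had none. sNPF, a peptide hormone gene that was not on the list, was called negative at -1.90 per the authors' deposited table. The shared positive sign therefore holds for the listed genes only. pros, the usual marker of the mature cells, had 0.70 per the authors' deposited table (adjusted p 0.191). The part of these cells in the values of the members was not tested.

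Neuron markers were mixed. Of 4 with a row of their own, n-syb was positive, and elav, Rbp9 and Appl did not pass in the authors' deposited table. The counts of this paragraph stand beside 5.24% positive and 1.9% negative calls over all single-gene rows. Of those 7571 rows, 1442 had p under 0.05 before adjustment. Rows that para, Sh and futsch share with other genes were called positive, at 2.10, 2.41 and 0.93 per the authors' deposited table. Of the glia markers, repo and gcm had no row under those names, and loco and moody, at -0.72 and -0.45 per the authors' deposited table, were not called, 1 of them with p under 0.05 before adjustment. No progenitor marker was called among 4 in the authors' deposited table, 0 of them with p under 0.05 before adjustment. The gene of the sorting driver, esg, was abundant at 835 CPM, and Sox100B and Sox21a stood at 387 and 188 CPM in the authors' deposited table. Dl had a lower mean of 26.5 CPM and a log2 fold change of 0.13 per the authors' deposited table, the only positive sign among the 4. The row that klu shares with a snoRNA gene had -0.09 at 80.9 CPM per the authors' deposited table. RNA of these progenitor markers was thus present. Apart from Dl, the single-gene glia and progenitor markers lay in the most abundant class, where 74.9% of all rows had a negative sign. The median log2 fold change of that class was -0.28, and the part of abundance in the signs of these markers was not tested.

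Neighbouring rows along the chromosome were read beside the members. Among the 42 rows that lie up to 3 places before or after a member, 5 were called positive and 1 negative, with a median log2 fold change of 0.23 per the authors' deposited table, where 5.17% of all rows were called positive. The called neighbours are named below and were chosen after their values were seen. Rab3 was the exception with more than 1 called neighbour. The row of stan, a cadherin gene on the opposite strand, ends 192 bases before that of Rab3 and had 1.87 per the authors' deposited table (adjusted p 0.000159). The row before it, CG12934, had 1.98 per the authors' deposited table (adjusted p 3.84e-09). On the other side, CG12338 begins 384 bases after Rab3 and had 0.26 per the authors' deposited table (adjusted p 0.855). Next to nrv3, the tetraspanin gene Tsp39D had 1.11 per the authors' deposited table (adjusted p 0.00505). Sytalpha and Syt4 had no called row directly beside them, and the rows next to Sytalpha lie 91754 and 46577 bases away. Within 3 rows of Sytalpha and elav, CG6453 and CG17778 were called at 0.96 and 2.66 per the authors' deposited table. Near brp, the engulfment gene ced-6 was called at -1.10 per the authors' deposited table (adjusted p 0.019).

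**Figure D5:**
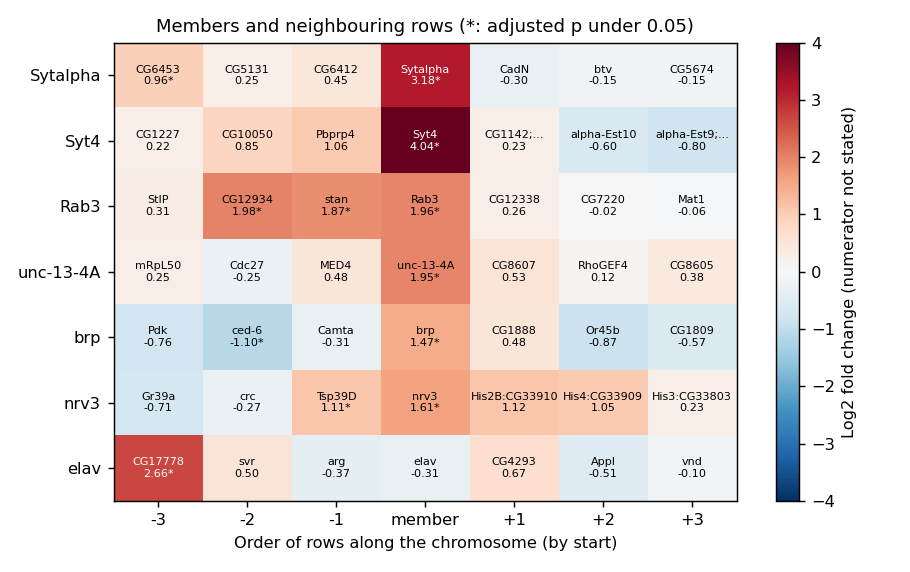
Log2 fold change between the ages in the authors' deposited table (colour and printed value) for each member, in the middle column, and for the 3 rows before and after it in order of start along its chromosome. An asterisk marks an adjusted p under 0.05, which 5 neighbours have with a positive and 1 with a negative value.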

How the data were processed

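TruSeq libraries were prepared and sequenced by the authors' service provider, per the labels' protocols; this kit keeps no strand information. Tools listed without roles, per the submitters' processing notes, are TopHat 1.2.0, Bowtie, edgeR and FastQC, on build dm3. The handling of reads that map to several places is unknown. Per the file headers, each deposited row holds the log2 fold change, mean log2 CPM, p-value and adjusted p-value of the authors' comparison. The deposited adjusted p-values equal a Benjamini-Hochberg adjustment over the 8164 rows within 2.56e-15. A further 12 columns of values per library match no sample label and were left out, so the planned edgeR fit and level per library were not run, and depth is unknown.

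A row is called where its adjusted p is under 0.05. Lists were counted over the 7571 single-gene rows, leaving out 589 rows of several genes and 4 with unreadable names, and no set test was made. The mean CPM is 2 to the power of the deposited log2 value. Transcript identifiers linked 7726 rows (94.6%) to Ensembl release 115 on BDGP6, used for names, transcript counts and exon lengths, which may differ from the models the authors used. Coordinates are dm3 as deposited, with starts read as 0-based and written 1-based. The members and lists were chosen with earlier results of these data known. The rule for named genes took all members, their relatives, list genes and overlapping or adjacent rows; called rows up to 3 places away were added after their values were seen. The adjustment was tested on simulated data. Python 3.11.15, numpy 2.4.6, pandas 2.3.3 and matplotlib 3.10.9 were used.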

Additional observations from a re-analysis of the deposited data

How the results depend on the processing

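The deposited comparison was read under other thresholds. All 6 positive calls among the members held at an adjusted p under 0.01, with a log2 fold change of at least 1 in size, and, in a setting added with the data known, with p-values adjusted anew over single-gene rows. With rows of at least 5 CPM only, 5 members could be tested and 4 were called. Syt4 and brp drop out there through the filter itself. No member was called negative under any of these settings. Among the other list genes, 15 of 52 single-gene rows were called positive, beside 5.24% of all single-gene rows. These lists include the enteroendocrine markers and were chosen with earlier results known, so the count is a description only. With rows of at least 5 CPM the count was 8 of 40. The filter took out Syt7, n-syb, cpx, rab3-GEF, tap, ase and Ast, each called positive at a mean under 5 CPM. Many of the calls among the list genes thus rest on rows of low abundance. Of all 6033 rows of at least 5 CPM, 228 were called. The count for the list genes was 14 at 0.01, 16 at 0.1, 21 of 62 with rows of several genes and 14 without the rows nearly equal to Snap25. No paired analysis was possible because no column of values per library could be tied to a sample, and for the same reason leaving out a replicate, DESeq2 and an unfiltered fit were not run. Low abundance limits Syt4 and brp most, and no standard error can be given for any fold change.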
